A study of Bos taurus with 2 samples.

Results

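Cluster 15 is the smallest and shallowest of the 15 clusters into which cultured bovine satellite cells were divided. It held 317 of 19096 cells, or 1.66%. Satellite cells are the muscle stem cells that lie beside the fibers of postnatal muscle and give rise to myoblasts, which differentiate into myocytes and fuse. All cells came from the skeletal muscle of 1 male Holstein calf aged 2 weeks and were grown for a week in DMEM with 10% fetal bovine serum, with no other treatment. From these same cells 2 libraries, called replicates 1 and 2, were prepared on the 10x Genomics platform. This platform counts RNA molecules near their 3′ ends through unique molecular identifiers (UMIs). There was therefore 1 group of 2 libraries, whose spread is technical and says nothing of the spread between animals.

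The cells of cluster 15 were found from the table of cluster averages that the authors deposited. Each average converts to a whole UMI count per gene and cluster, to within 0.000114, and these sums fixed the cluster of each cell by elimination. The sums over the cells found in this way differed from the deposited averages for 0 of 252240 pairs of gene and cluster. Replicate 1 contributed 134 of its 9939 cells (1.35%) and replicate 2 contributed 183 of its 9157 cells (2.00%). Because the clusters were made from these same counts, no difference between cluster 15 and other cells was tested. All such differences are descriptions, with the values of both libraries.

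Sarcomeres are the contractile units of muscle. Their thin filaments hold actin, tropomyosin and the troponin complex, their thick filaments hold myosin heavy and light chains, and the Z-discs anchor the thin filaments. Myoblasts turn on these genes as they leave the cell cycle and differentiate, under myogenic regulators such as MYOD1 and, later, MYOG. ACTA1 (skeletal muscle actin), MYLPF (the regulatory light chain of fast myosin) and TNNC2 (the calcium-binding subunit of fast troponin) are the genes by which cluster 15 is described here.

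Cluster 15 differed from all other clusters in depth. Its cells had between 473 and 1268 UMIs, with a median of 647. The median was 660.5 in replicate 1 and 631 in replicate 2. All 26 cells of the series with fewer than 500 UMIs belonged to it, and so did 186 of the 269 cells (69.1%) with fewer than 700. Between 1000 and 1500 UMIs, it held only 23 of 709 cells (3.24%), and cluster 7 held 452. Cluster 15 summed to 219359 UMIs, which was 0.0774% of the UMIs of the series. The other shallow clusters had medians of 1389 (cluster 7), 1631 (cluster 13) and 2513.5 (cluster 14) UMIs per cell. A total of 9423 genes had at least 1 UMI in cluster 15, of 16816 genes with a UMI in any cell.

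**Figure D1:**
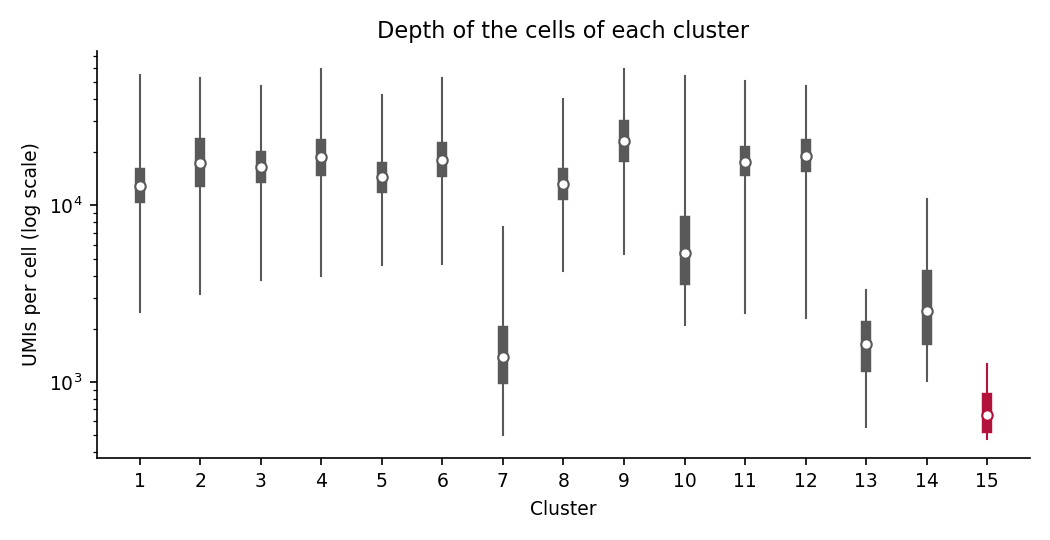
UMIs per cell (log scale) in each of the 15 clusters, both libraries together. Thin lines run from the lowest to the highest cell, thick bars span the quartiles and open circles are medians; cluster 15 (red) has the lowest median, at 647 UMIs.

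After every cell was thinned to 500 UMIs, cells of cluster 15 did not contain few genes for their depth. The 291 cells with at least 500 UMIs had a median of 377 genes. At the same depth, clusters 7, 13, 14 and 12 had medians of 386, 351, 362 and 361 genes. Of 27 cell barcodes that occurred in both libraries, only 1 had both of its cells in the same cluster, which was cluster 15. Of the cells with such barcodes, 4 were in cluster 15. This is more than its share of 1.66% of all cells would give, but the count is small and was not tested. Within cluster 15, the UMI counts of 1912 genes differed between the libraries more than counting error alone would give. Chi-square divided by its degrees of freedom was 1.18, where counting error alone gives about 1. Genes with very few UMIs in either library were left out, which can lower this value.

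The levels of ACTA1, MYLPF and TNNC2 were higher in cluster 15 than in all other cells in both libraries, and only cluster 12 had higher mean levels. The level of a gene is its UMIs per 10000 UMIs. The level of ACTA1 was 4.09 in replicate 1 and 5.24 in replicate 2, against 1.01 and 0.941 in all other cells. This is a ratio of 4.78, from 104 UMIs. The level of MYLPF was 23.9 and 16.3 against 5.95 and 5.77 (ratio 3.43, 430 UMIs). The level of TNNC2 was 14.9 and 11.1 against 4.96 and 4.98 (ratio 2.62, 280 UMIs). For each of the 3 genes, both values of cluster 15 lay above both values of the other cells.

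The order of the clusters differed between these genes. Cluster 12, which the authors considered to be myocytes, had mean levels of 18.8 ± 1.74 for ACTA1, 68.5 ± 2.39 for MYLPF and 37.1 ± 0.669 for TNNC2 (SD, n = 2 libraries). Cluster 15 came next with 4.67 ± 0.812, 20.1 ± 5.40 and 13 ± 2.67. For ACTA1, the next cluster was cluster 14, at 2.39 ± 1.24. For MYLPF and TNNC2 it was cluster 3, the other cluster considered to be myocytes, at 13.3 ± 0.896 and 12.8 ± 0.192. The TNNC2 levels of clusters 15 and 3 did not differ beyond the spread of the libraries, since replicate 2 of cluster 15 (11.1) lay below both libraries of cluster 3. For ACTA1 cluster 3 had a level of only 0.360 ± 0.0476.

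**Figure D2:**
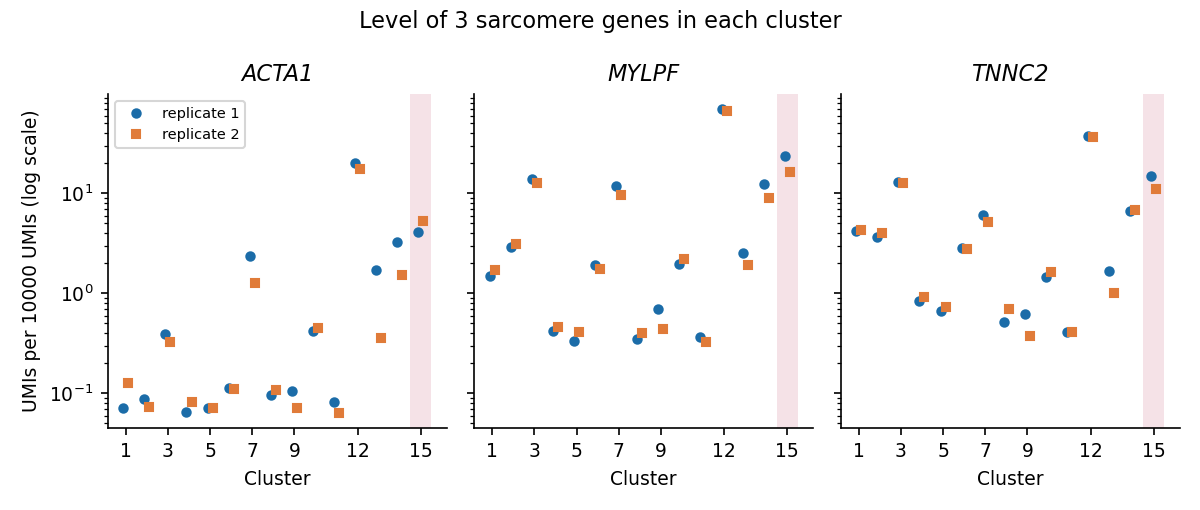
Level of ACTA1, MYLPF and TNNC2 (UMIs per 10000 UMIs, log scale) in each cluster, with circles for replicate 1 and squares for replicate 2. Cluster 15 (shaded) lies below cluster 12 for all 3 genes, and overlaps cluster 3 only for TNNC2.

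Among the genes abundant enough to be compared, cluster 15 resembled the average of all other cells. Genes were compared if at least 20 UMIs were observed in cluster 15 or would be there at the share of the other cells. Of 2059 such genes, 16 (0.777%) had a level at least 2-fold higher in both libraries, and 7 (0.34%) had a level at least 2-fold lower. Most of the 16 reached the minimum only through their UMIs in cluster 15, which favors high values. With a minimum set on the share of the other cells alone, a choice made after the data had been seen, 5 of 1730 genes were higher and 7 lower, and the 5 were ACTA1, MYLPF, TNNC1, TNNC2 and CRYAB. Depth limits this comparison to abundant genes. In replicate 2 alone, 12 genes were higher and 17 lower, and in replicate 1 alone, 26 and 13. With TMM scaling, which shifts the median log2 ratio of all genes from 0.13 to -0.14, the numbers were 5 higher and 32 lower. With median-of-ratios scaling they were 8 and 18. With the other 14 clusters weighted equally they were 12 and 20. Against other cells under 2000 UMIs only, the difference was larger, with 102 of 2385 genes (4.28%) higher and 330 (13.8%) lower.

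Of the 16 genes, 6 belong to the list of sarcomere genes. They were TNNI2, ACTA1, MYLPF, TNNC1, TNNC2 and CRYAB. Of these, ACTA1, MYLPF and TNNI2 were at least 2-fold higher under both other scalings too. With the other 14 clusters weighted equally, so that the few myocytes of cluster 12 count as much as the larger clusters, CRYAB, MYLPF and TNNI2 were the sarcomere genes that passed, and ACTA1 did not. The remaining 10 genes were HSPB2, MPHOSPH6, PSMC6, ENO3, RELA, YIPF5, WDR46, HNRNPL, LFNG and POLR1E. Among them, HSPB2 (a small heat shock protein of muscle) had a ratio of 3.37 from 45 UMIs, with levels of 2.52 and 1.69 against 0.622 and 0.628. ENO3, the muscle form of the glycolytic enzyme enolase, had levels of 2.10 and 1.53 against 0.767 and 0.756. PSMC6, an ATPase subunit of the proteasome, had levels of 1.89 and 2.26 against 0.849 and 0.833, from 46 UMIs. The others rested on 20 to 32 UMIs each. RELA, the p65 subunit of NF-κB, had 21 UMIs, where 8.82 would be found at the share of the other cells. It thus reached the minimum only through cluster 15. Its level had an exact Poisson interval at 95% of 0.593 to 1.46, beside 0.402 in the other cells. Because RELA was picked for its high ratio, this interval cannot show a difference. Such intervals cover counting error only. POLR1E, with ratios of 2.08 and 2.00, was just inside the threshold, and FDX2, NAA38 and POLR2K were just outside it.

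The thin filament genes were described by 9 genes of 17 found in the feature list. Of these 9, 4 were at least 2-fold higher (ACTA1, TNNC1, TNNC2 and TNNI2) and none was 2-fold lower in both libraries, where 0.777% of all genes compared were higher and 0.34% lower. ACTA1 and TNNC2 are among the genes by which cluster 15 is described, so their part of this count follows from that choice. TNNI2 reached the minimum only through cluster 15, since 2.88 UMIs would be found at the share of the other cells. The level of TNNI2, the inhibitory subunit of fast troponin, was 1.47 and 0.726 against 0.141 and 0.124, from 23 UMIs in cluster 15. The level of TNNC1, the calcium-binding subunit of slow and cardiac troponin, was 2.62 and 4.11 against 1.2 and 1.19. ACTC1, the cardiac actin that developing skeletal muscle also expresses, stood at 44.2 and 40.0 against 21.6 in both libraries of the other cells, which are ratios of 2.05 and 1.85. The tropomyosin genes were closer to the other cells. Their ratios were 1.72 for TPM2, 1.25 for TPM1 and 1.11 for TPM3. NEB, which encodes the giant protein nebulin that runs along the thin filament, went the other way. Its level was 0.629 and 1.37 against 2.45 and 2.35, from 23 UMIs, and the values of the 2 libraries of cluster 15 both lay below those of the other cells.

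Only 2 of 20 thick filament genes had enough UMIs. They were MYLPF and MYH3, the embryonic myosin heavy chain. MYH3 had levels of 1.05 and 0.806 against 0.987 and 1.09, so that the groups overlapped. A further 11 thick filament genes had no UMI at all in cluster 15. MYL1, a myosin light chain of fast fibers, fell short of the minimum with 14 UMIs, at levels of 0.420 and 0.806 against 0.160 and 0.152.

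Of 19 Z-disc genes, 4 were compared. CRYAB, a small heat shock protein that binds desmin and other Z-disc proteins, had levels of 7.45 and 8.55 against 3.42 and 3.31. DES, the intermediate filament protein desmin, had levels of 6.29 and 6.45 against 4.61 and 4.48, a ratio of 1.40. PDLIM3 rested on replicate 1, with ratios of 2.99 and 1.08. KLHL41, a protein needed for the upkeep of sarcomeres, had a ratio of 0.820.

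In all, 15 of 56 sarcomere genes had enough UMIs, with a median log2 ratio of 0.96 (1.03 in replicate 1 and 0.82 in replicate 2), beside a median of 0.13 over all 2059 genes. In both libraries, 12 of the 15 genes were above the other cells and 2 were below, where 44.0% of all genes compared were above and 25.7% below. The 15 genes include ACTA1, MYLPF and TNNC2, by which the cluster is described. TNNI2 and PDLIM3 entered only through their UMIs in cluster 15. With the minimum set on the share of the other cells alone, 13 genes had a median log2 ratio of 0.78, beside 0.05 over all 1730 genes. A gene with few UMIs enters only if it is high in cluster 15 or abundant elsewhere, so these numbers do not stand for all 56 genes, 17 of which had no UMI in cluster 15. Some genes of the list were not confined to myogenic clusters. TPM1, with 552 UMIs in cluster 15, had a mean level of 25 there and 19.9 in all other cells. In cluster 9, considered by the authors to be fibro-adipogenic progenitors, the level of TPM1 was 19.8. The summed levels include such genes. Summed over the whole list, the level was 155 in replicate 1 and 150 in replicate 2, against 82.9 and 82.6 in all other cells. The mean over the libraries of cluster 15, 152 ± 3.53, was the same as that of cluster 3 (152 ± 3.68), below that of cluster 12 (449 ± 5.97) and above those of clusters 7 (a mean of 112) and 14 (92.5 ± 3.52; SD, n = 2 libraries).

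**Figure D3:**
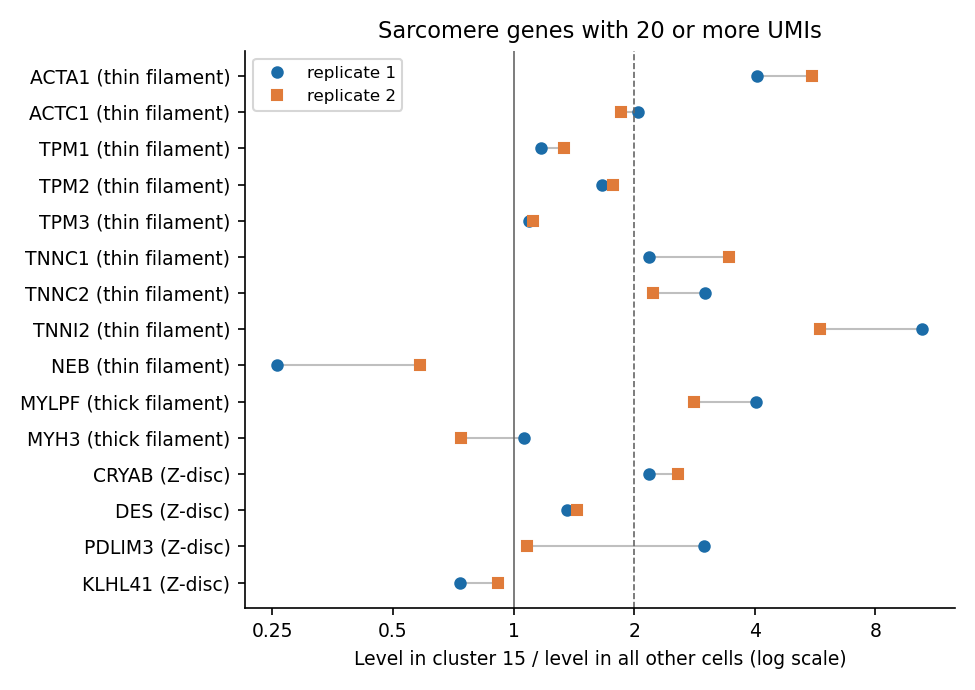
Level in cluster 15 divided by the level in all other cells (log scale) for the 15 sarcomere genes compared, with circles for replicate 1 and squares for replicate 2. The solid line marks equal levels and the dashed line 2-fold; TNNI2 has the highest ratios (10.5 and 5.83) and NEB the lowest (0.257 and 0.584).

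The other muscle genes were not uniform. ENO3 had a ratio of 2.38 and MYOG one of 1.89, while MYOD1, MYF5, ALDOA, FABP3 and JSRP1 were closer to the other cells. MYOG, which drives the differentiation of myoblasts, had levels of 4.93 and 3.06 against 2.10 and 2.13 (85 UMIs), or ratios of 2.35 and 1.44. MYOD1, which commits cells to the myogenic lineage, had levels of 2.41 and 3.55 against 4.17 and 3.93. MYF5, another commitment factor, had a level of 1.05 in both libraries against 0.979 and 0.922. PAX7 and PAX3, which mark satellite cells, had no UMI in cluster 15, where 0.135 and 0.246 UMIs would be found at the share of the other cells. This depth could therefore not detect them. Of the genes of muscle energy metabolism, 4 of 16 were compared and 1 (ENO3) was at least 2-fold higher (0.777% of all genes compared), which reached the minimum only through its 39 UMIs in cluster 15. The level of ALDOA, an aldolase of glycolysis, was 9.59 ± 0.352 against 7.93 ± 0.0328, and that of FABP3, a fatty acid binding protein, was 3.15 ± 0.00233 against 3.73 ± 0.0559 (SD, n = 2 libraries). Of 15 genes of calcium handling, only JSRP1, a protein of the junctional sarcoplasmic reticulum, was compared, at a ratio of 0.867.

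The cells of cluster 15 were unequal in their sarcomere content. A cell had between 0 and 216 sarcomere UMIs, with a median of 5. As a share of the UMIs of a cell, this was 0.837% at the median and 21.3% at the highest. The share includes genes such as TPM1, which clusters not considered myogenic also had. At least 5% of the UMIs were sarcomere UMIs in 19 cells, of which 10 were in replicate 1 and 9 in replicate 2. At least 10% were in 8 cells, 4 in each library. No UMI of ACTA1, MYLPF or TNNC2 was counted in 142 cells (44.8%), while 17 cells (5.36%) had UMIs of all 3 genes.

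When the cells were ranked by this share, the highest 32 cells, which are 10% of the cluster rounded up, held 49.9% of the sarcomere UMIs of the cluster. These cells came from both libraries, with 13 in replicate 1 and 19 in replicate 2. They were not deeper than the others, with a median of 624 UMIs against 647 in the remaining 285 cells. The lowest share among them was 2.42% and the highest below them was 2.37%, so that the boundary falls within a continuous range. They held 82 of the 104 UMIs of ACTA1, 293 of the 430 of MYLPF, 179 of the 280 of TNNC2 and 20 of the 23 of TNNI2. A high content of list genes in these cells follows from the ranking and is not a finding in itself.

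The remaining 285 cells had a summed sarcomere level of 83.9 in replicate 1 and 85.1 in replicate 2, close to the 82.9 and 82.6 of all other cells. Compared with these, 5 of 1867 genes (0.268%) were at least 2-fold higher in the 285 cells (YIPF5, PSMC6, MPHOSPH6, HNRNPL and NAA38). Another 5 were lower (UTRN, CLPTM1L, KDELR1, P3H4 and a gene without a symbol). No sarcomere gene was among them. Of the higher genes, YIPF5, PSMC6, MPHOSPH6 and HNRNPL reached the minimum only through their own UMIs, which favors high values. At the share of the other cells, 10.1, 18.4, 9.58 and 14.6 UMIs would be found in the whole cluster. Of the lower genes, CLPTM1L and P3H4 (10 and 8 UMIs) reached the minimum only through the share of the other cells. The median log2 ratio of the sarcomere list was then 0.03, beside 0.12 over all genes compared. Removing the highest cells lowers the level of any cluster, and the other cells had kept theirs. When the highest 10% of all other cells were also left out, their level was 54.4 in both libraries, below that of the 285 cells. The same removal left levels of 48.1 and 54.2 in cluster 14, where the removed cells had held 49.2% of the sarcomere UMIs. In the same way, the removed cells had held 41.5% in all other cells, 49.7% in cluster 7, 32.3% in cluster 13 and 19.6% in cluster 12.

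**Figure D4:**
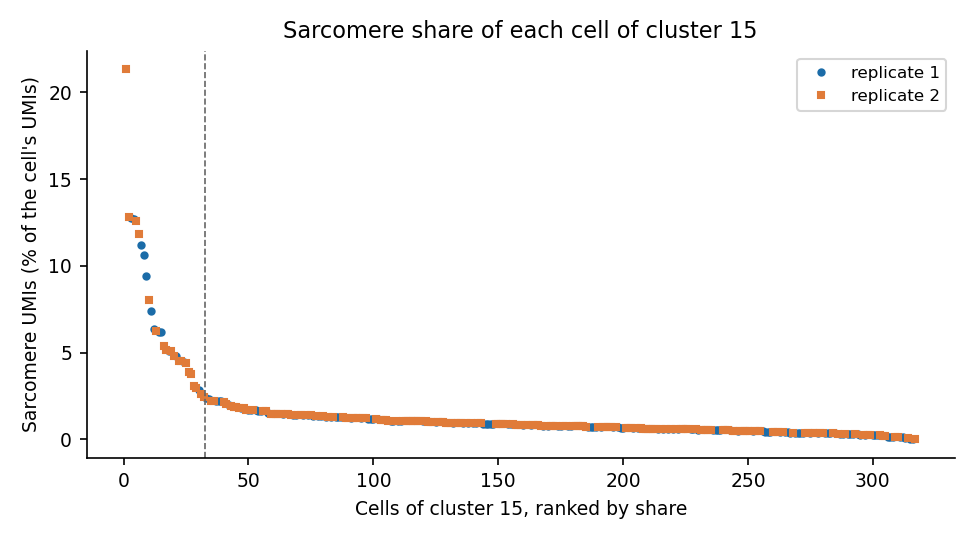
Share of sarcomere UMIs (percent of the UMIs of a cell) in each of the 317 cells of cluster 15, in ranked order, with circles for replicate 1 and squares for replicate 2. The dashed line separates the 32 highest cells; shares start at 21.3% and the median cell has 0.837%.

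Several genes that did not enter the ranking also differed between these 32 cells and the remaining 285. The level of MYOG was 31.9 in replicate 1 and 13.4 in replicate 2, against 1.87 and 1.89 in the remaining cells. It was 18.6 in cluster 12. The level of MYOD1 went the other way, with 2.06 and 0 against 2.45 and 3.95, although only 2 UMIs were counted in the 32 cells. The level of HSPB2 was 13.4 and 12.6 against 1.29 and 0.449, and that of ENO3 was 10.3 and 7.10 against 1.17 and 0.898. MYMK, which encodes a protein of myoblast fusion, had 0 UMIs in the 32 cells and 8 in the remaining cells. These are too few to show a difference between the 32 and the remaining cells. Its level in cluster 12 was 3.16, above the 0 among the 22405 UMIs of the 32 cells. The summed level of 43 S phase genes, which act in DNA replication, was 8.23 and 7.89 against 27.3 and 30.4. The summed level of 54 G2/M genes, which act in mitosis, was 32.9 and 47.3 against 73.8 and 73.3. The collagens and other fibroblast markers had a summed level of 19.5 and 42.6 against 107 and 120. In each of these lists the values of the libraries did not overlap. Sarcomere UMIs took up 7.42% of the UMIs of the 32 cells, which lowers the level of every other gene there to that extent.

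The proportions of NEB and MYH3 to MYLPF were lower in cluster 15 than in cluster 12, while those of ACTC1 and ACTA1 overlapped and that of TNNC2 was slightly higher. For each 100 UMIs of MYLPF, cluster 15 had 5.35 UMIs of NEB, and cluster 12 had 20.8. The libraries gave 2.63 and 8.42 in cluster 15 and 21.1 and 20.6 in cluster 12. For MYH3 the values were 4.65 in cluster 15 and 22.6 in cluster 12. For ACTA1, the libraries gave 17.1 and 32.2 in cluster 15 and 28.5 and 26.2 in cluster 12. For TNNC2, they gave 62.3 and 68.3 against 53.5 and 54.8, and for ACTC1 they gave 185 and 246 against 211 and 227. In the 32 cells alone, 2 UMIs of NEB were counted beside 293 of MYLPF, a gene that raises the share by which these cells were ranked. In the remaining 285 cells, 21 UMIs of NEB were counted beside 137 of MYLPF, which is 15.3 for each 100 (8.57 in replicate 1 and 22.4 in replicate 2). Cluster 14 had 8.15 UMIs of NEB and 5.52 of MYH3 for each 100 of MYLPF, closer to cluster 15 than to cluster 12.

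**Figure D5:**
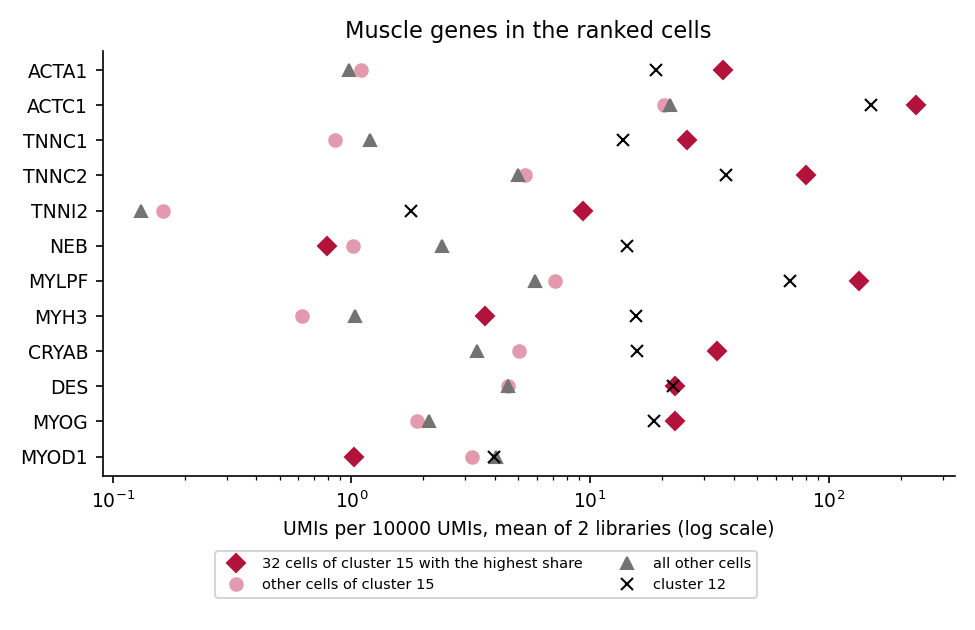
Level (UMIs per 10000 UMIs, log scale, mean of 2 libraries) of 12 muscle genes in the 32 cells of cluster 15 with the highest sarcomere share, the other 285 cells, all cells outside cluster 15, and cluster 12. The 32 cells were chosen by their sarcomere UMIs and cluster 12 was not, so their high levels of sarcomere genes follow from the choice; NEB (0.789 against 14.3) and MYH3 (3.63 against 15.5) are below cluster 12.

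At an equal depth of 500 UMIs, 46.7% of the cells of cluster 15 had a UMI of ACTA1, MYLPF or TNNC2 (exact binomial interval at 95%, 40.9% to 52.6%). Replicate 1 gave 52.2% and replicate 2 gave 42.0%. At this depth, the share was 96.2% for cluster 12 and 55.5% for cluster 3, both above cluster 15. It was 32.4%, 24.7% and 15.6% for clusters 7, 14 and 13. In cluster 9, considered by the authors to be fibro-adipogenic progenitors, it was 4.35% (3.21% to 5.75%), at a median depth before thinning of 23011 UMIs. Without thinning, 37.2% of the cells of cluster 15 and 48.2% of those of cluster 9 had a UMI of MYLPF. Cells with at least 20 sarcomere UMIs of 500 made up 7.90% of cluster 15 (5.08% to 11.6%) and 50.2% of cluster 12. The libraries gave 8.96% and 7.01% in cluster 15, and 4.76% and 5.08% in cluster 14. These cells made up 4.01% of cluster 7. The variance of sarcomere UMIs over their mean was 19.9 for cluster 15, the highest of these clusters. It was 15.6, 8.50, 5.46 and 4.36 for clusters 14, 7, 12 and 13. The value for cluster 15 rests in part on 1 cell with a sarcomere share of 21.3%. It was not computed without that cell, so the order of clusters 15 and 14 is uncertain. Free RNA in the cell suspension was not tested as a source of UMIs.

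The share of ribosomal protein UMIs in cluster 15 was 22.0% in replicate 1 and 22.8% in replicate 2, against a mean of 26.0% in all other cells. Of 79 ribosomal protein genes compared, 63 were below the other cells in both libraries, 9 were above and none reached 2-fold. Of all 2059 genes, 529 (25.7%) were below and 906 (44.0%) above. The genes of the cell cycle were at the level of the other cells. The summed S phase level was 26.8 ± 1.94 against 26.5 ± 0.364, and the G2/M level was 70.1 ± 0.678 against 69.9 ± 1.18 (SD, n = 2 libraries). A list of 17 stress and damage genes had a summed level of 68.7 ± 0.981 against 62.7 ± 1.37, with none of the 10 genes compared reaching 2-fold. Inside the cluster, the sarcomere level was 134 in cells below the median depth of the cluster and 163 in the others, with 134 below the median in both libraries.

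The 7 genes that were at least 2-fold lower were IGFBP5, HIST1H1E, UTRN, CLPTM1L, KDELR1, SPTBN1 and KLF6. IGFBP5, HIST1H1E and CLPTM1L had 2, 7 and 11 UMIs in cluster 15. They reached the minimum only through the share of the other cells, which favors low values. IGFBP5, a secreted binding protein of insulin-like growth factors, had 0 UMIs in replicate 1 and 2 UMIs in replicate 2, where 20.1 in both together would be found at the share of the other cells. UTRN encodes utrophin, a large relative of dystrophin, and had levels of 1.05 and 1.37 against 2.98 and 2.89. SPTBN1, which encodes a spectrin of the membrane skeleton, had levels of 0.839 and 1.21 against 2.43 and 2.44. KDELR1, a receptor that returns proteins to the endoplasmic reticulum, had levels of 1.36 and 1.77 against 3.74 in both libraries. The level of KLF6, a zinc finger transcription factor, was 1.05 and 1.21 against 2.68 and 2.67. For CLPTM1L, KDELR1, SPTBN1 and KLF6 the mean level of cluster 15 was the lowest of the 15 clusters. Of the 7 low levels, 3 were shared with cluster 14, with ratios of cluster 15 to cluster 14 of 0.911 for SPTBN1, 0.921 for UTRN and 0.943 for HIST1H1E. The other ratios were 0.198 for IGFBP5, 0.413 for CLPTM1L, 0.549 for KDELR1 and 0.614 for KLF6.

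Markers of other cell types gave the cluster no identity. For most of these lists, no gene had enough UMIs to be compared. No UMI was counted in cluster 15 for the 8 endothelial, 9 immune and 5 erythroid markers found in the feature list, PECAM1 and CDH5 included. At the depth of the cluster, a count of 0 is uninformative for rare RNAs such as PECAM1, of which 0.0344 UMIs would be found at the share of the other cells. Of 5 glial markers, 4 had no UMI, and S100B had 8 and 3 UMIs in the 2 libraries. FOXD3 and SOX10 had none in any cell. The pericyte and smooth muscle list had a summed level of 10.2 ± 1.60 against 9.65 ± 0.306, of which ACTA2 gave 171 of 226 UMIs, while MCAM and MYH11 had none. The 17 fibro-adipogenic and fibroblast markers had a summed level of 97.7 and 112 against 147 and 150. Of the 8 compared, 7 were below the other cells in both libraries (25.7% of all genes) and none was 2-fold lower. The largest contributor, COL1A2 (a chain of type I collagen), had levels of 28.2 and 34.7 against 48.4 and 50.9. PDGFRA, a marker of fibro-adipogenic progenitors, had 6 UMIs, close to the 6.85 at the share of the other cells. The adipocyte genes ADIPOQ and LEP had none.

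Across 1918 genes, the profile of cluster 15 was most like that of cluster 14. The correlation of log2 levels was 0.967, and 97.7% of the genes lay within 2-fold. This correlation is across genes of the same libraries, and genes are not independent. The next highest was cluster 6 (0.940), and the lowest was cluster 7 (0.732). Clusters 3 and 12, both considered to be myocytes, gave 0.919 and 0.860. Of 2000 genes compared with cluster 14, 19 (0.95%) were at least 2-fold higher in cluster 15 and 4 (0.2%) were lower. All 19 reached the minimum only through their UMIs in cluster 15, and with the minimum set on the share of cluster 14 alone, 0 of 1611 genes were higher and 4 were lower. The ratios were 1.95 for ACTA1, 1.89 for MYLPF and 1.93 for TNNC2. For ACTA1 the ratio differed widely between the libraries, with levels of 4.09 and 5.24 against 3.26 and 1.52 in cluster 14. The 4 lower genes were SPON2, CLPTM1L, SERTAD1 and S100A4. SPON2, CLPTM1L and SERTAD1 (9, 11 and 10 UMIs in cluster 15) reached the minimum only through cluster 14, which favors low values. S100A4, a calcium-binding protein used as a fibroblast marker, had levels of 8.90 ± 1.32 in cluster 15 and 20.3 ± 1.83 in cluster 14 (SD, n = 2 libraries).

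Cluster 12 was compared directly with cluster 15, and cluster 3 was not. Of 2152 genes, 208 (9.67%) were at least 2-fold higher in cluster 15 and 152 (7.06%) at least 2-fold lower. In replicate 1 alone, 106 were higher and 106 lower. With TMM scaling the balance turned, to 95 higher and 375 lower. Of the 208 higher genes, 171 reached the minimum only through cluster 15, and with the minimum set on the share of cluster 12 alone, 37 were higher and 152 lower. Of the 24 sarcomere genes compared, 18 were lower. All 24 reached the minimum at the share of cluster 12, and no more than 15 reached it by their UMIs in cluster 15. The others entered only through cluster 12, which favors low values in cluster 15. How many of the 18 did so was not counted. MYH3 had 0.0598 times and NEB 0.0700 times the level of cluster 12. The summed level of the S phase genes was 26.8 ± 1.94 in cluster 15 and 6.95 ± 0.280 in cluster 12, and that of the G2/M genes was 70.1 ± 0.678 and 24.8 ± 0.0799 (SD, n = 2 libraries).

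The other shallow clusters differed from cluster 15 more than cluster 14 did. Of 2610 genes compared with cluster 7, 408 (15.6%) were at least 2-fold higher in cluster 15 and 594 (22.8%) lower. In replicate 1 alone, 365 were higher and 302 lower, and with the minimum set on the share of cluster 7 alone, 245 were higher and 594 lower. Of 79 ribosomal protein genes, 67 were higher, and of 14 fibro-adipogenic and fibroblast markers, 10 were lower. All 14 markers reached the minimum at the share of cluster 7, and no more than 8 reached it by their UMIs in cluster 15. The other markers entered only through cluster 7, which favors low values in cluster 15. How many of the 10 did so was not counted. Cluster 7 had a ribosomal protein share of only 9.09%. Of 2206 genes compared with cluster 13, 339 (15.4%) were higher in cluster 15 and 73 (3.31%) lower, and TMM scaling gave 212 and 206. With the minimum set on the share of cluster 13 alone, 136 of 1680 genes (8.1%) were higher and 73 (4.35%) lower. Of 12 sarcomere genes, 6 were then higher and none lower. MYLPF was 9.12-fold and TNNC2 9.72-fold higher.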

How the data were processed

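Both libraries were made with the 3′ v3 chemistry of 10x Genomics. The authors used Cell Ranger 3.0.2 for alignment to ARS-UCD1.2, cell calling, UMI counting and the merging of both libraries at equal read depth, which discards reads of the deeper library. The deposited counts are whole numbers of UMIs without normalization, summing to 145631299 in replicate 1 and 137818568 in replicate 2. The deposited cluster averages are score values, UMI counts scaled to a common total of 14889. The log2 fold changes and p-values in that table are the authors' own comparisons and were not used. The library of a cell was read from its barcode suffix. No removal of doublets was described or added. Cell types of other clusters are the authors' names.

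UMIs were summed per library and cluster. A gene was called 2-fold different if at least 20 UMIs were observed or expected in cluster 15 and its share differed 2-fold in the same direction in each library. On simulated counts for cluster 15 against all other cells, with 3-fold changes over 1869 genes, this rule recovered 98.0% of raised and 83.0% of lowered genes and called 2 unchanged genes. The simulated counts had counting error only, and only genes with at least 20 UMIs expected were changed. Most genes called higher had fewer expected, and sarcomere UMIs were uneven between cells. These rates therefore do not carry over to the calls reported here. Cells were thinned to 500 UMIs with a fixed seed. Alternatives used scaling factors of edgeR 4.0.16 in R 4.3.3. Other values were computed in Python 3.11.15.

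Genes named are ACTA1, MYLPF and TNNC2, the 15 highest and 10 lowest ratios called, the 10 highest levels, muscle genes with at least 20 UMIs, the myogenic factors, the leading marker of each other cell type and the markers the paper names. POLR1E, the genes just outside the threshold and those named from comparisons with single clusters were chosen after their values were seen. The cluster and the gene lists were chosen with earlier results of these data known. The comparisons with cluster 14, the ranking of cells and the minimum without the UMIs of cluster 15 were added after the data had been seen. No mitochondrial gene of a list of 13 matched a symbol, so they were not analysed here.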

Additional observations from a re-analysis of the deposited data

How the results depend on the processing

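No paired analysis was possible because no result comes from a test. The 2-fold calls were made within each library, and a single ratio is that of the means over both libraries. Of 82 alternative values, 38 moved by less than the spread of the libraries or, for counts of genes, by less than 1.5 times, and 44 moved by more. The median log2 ratio of the sarcomere list stayed above 0, but without the 32 cells with the highest sarcomere share it was below the 0.12 of all genes. The balance of higher and lower genes turned with both scalings, with equal weights and against cells under 2000 UMIs. It also turned with no minimum, with the minimum on the share of the other cells and without replicate 1. Against all other cells, the 16 higher and 7 lower genes became 5 and 32 with TMM scaling, 8 and 18 with median-of-ratios scaling, 102 and 330 against other cells under 2000 UMIs only, 56 and 38 with a minimum of 10 UMIs, 5 and 4 with a minimum of 50, and 307 and 6456 with no minimum. With the other 14 clusters weighted equally, 12 genes were higher and 20 lower. With the minimum set on the share of the other cells alone, 5 were higher and 7 lower. Without the 32 cells with the highest sarcomere share, 5 were higher. Leaving out 1 library, where a gene passes in a single library, gave 12 to 26 higher and 13 to 17 lower genes (12 and 17 without replicate 1, 26 and 13 without replicate 2). The median log2 ratio of the sarcomere list, 0.96, became 0.73 with TMM scaling, 0.75 with equal weights, 1.15 against cells under 2000 UMIs, 1.14 with a minimum of 10 UMIs, 0.41 with no minimum, 0.78 with the minimum on the share of the other cells and 0.03 without the 32 cells. The summed sarcomere level of 152 became 163 in cells at or above the median depth, 148 as a mean over cells and 84.5 without the 32 cells. At 300 UMIs, the median was 247 genes per cell, and 37.5% of the cells had a UMI of ACTA1, MYLPF or TNNC2. Against cluster 12, the 208 higher and 152 lower genes became 95 and 375 with TMM scaling, which turned the balance, 37 and 152 with the minimum on the share of cluster 12, which also turned it, and 429 and 250 with a minimum of 10 UMIs. Against cluster 13, the counts were 212 and 206 with TMM scaling, 526 and 188 with a minimum of 10 UMIs and 136 and 73 with the minimum on its share. Against cluster 7, a minimum of 10 UMIs gave 947 lower genes, and the minimum on its share gave 245 higher genes. Leaving out 1 library gave 365 to 435 higher and 302 to 458 lower genes against cluster 7, where the balance turned without replicate 2 (365 and 302). Against cluster 12 it gave 106 to 148 higher and 106 to 135 lower genes. The causes of these shifts were not tested. The alternatives without mitochondrial genes were not run. At a total of 219359 UMIs, only 2059 genes could be compared.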

Other observations

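Further genes differed between the 32 cells of cluster 15 with the highest sarcomere share and the other 285. CDKN1C, an inhibitor of cyclin-dependent kinases, had levels of 40.1 and 30.8 in replicates 1 and 2 of the 32 cells, against 5.96 and 7.18. Its level in cluster 12 was 37.4. HSPB8, a small heat shock protein of muscle, had levels of 30.8 and 22.1 against 5.14 and 4.94. SLC25A4, the mitochondrial ADP/ATP carrier of muscle, had levels of 13.4 and 14.2 against 2.92 and 1.98. CDKN1C, HSPB8 and SLC25A4 were chosen after their values were seen. Vimentin (VIM), an intermediate filament protein of mesenchymal cells, had levels of 52.4 and 54.4 against 83.5 and 86.9. No test was made of these differences.

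The 10 genes with the highest levels in cluster 15 encode cytoskeletal proteins, translation factors and ribosomal proteins, plus 1 gene without a symbol. VIM had a level of 82.0 ± 2.29 in cluster 15 and 84.1 ± 0.763 elsewhere (SD, n = 2 libraries), and ACTB, a cytoplasmic actin, had 73.9 ± 2.52 against 65.7 ± 1.46. EEF1A1, a translation elongation factor, had 62.9 ± 10.5 against 73.2 ± 10.3, and RPS12 had 67.7 ± 1.97 against 101 ± 2.83.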
